A study of Mus musculus with 18 samples.

Results

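Ddx25, Pus3 and Hyls1 are neighbouring genes on mouse chromosome 9. They were chosen by position: Ddx25 is the gene targeted in the mutant mice, Pus3 is transcribed away from it in the other direction, and Hyls1 is the next gene. They are 3 of the 54232 genes in the count table, and all 3 had enough counts to be tested. RNA was sequenced from round spermatids (RS), the haploid germ cells of the testis after meiosis and before elongation. The RS came from mice aged 75 to 85 days that were WT, KO for GRTH or KI for GRTH, with 6 libraries per genotype and 18 in all. GRTH is the name of the DDX25 protein, and KO mice do not make it. KI mice, by the study's account, carry a human GRTH gene with a missense mutation and do not have the phosphorylated protein. The study describes the form without phosphate as not affected in these mice. Counts were given per gene, so the part of a gene that the reads came from is not visible, and the level of a human transcript was not measured. The library labelled KI 4 is treated apart throughout, because its Ddx25 level goes against its label. It was set apart with that level known, so values for KI are those of the other 5 libraries unless KI 4 is named, and fits with KI 4 kept stand beside the results for the 3 genes.

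DDX25 is an RNA helicase of the DEAD-box family, enzymes that use ATP to unwind or remodel RNA. It is found in germ cells and Leydig cells of the testis, where it takes part in the export, storage and translation of mRNAs needed to make sperm. PUS3 is a pseudouridine synthase, an enzyme that changes uridine to pseudouridine in the anticodon stem and loop of tRNAs. HYLS1 is a protein of the centriole, the structure from which cilia and the sperm flagellum grow.

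Ddx25 (ENSMUSG00000032101) lies on the minus strand at chr9:35536647-35558528 of GRCm38, with 12 exon blocks and 6934 exonic bases. Pus3 (ENSMUSG00000032103) lies on the plus strand at chr9:35558595-35567401, with 3 exon blocks and 2972 exonic bases. The annotated 5′ ends of Ddx25 and Pus3 are 67 bases apart in GENCODE and 90 bases apart in RefSeq, so the genes stand head to head. Hyls1 (ENSMUSG00000050555) lies on the minus strand at chr9:35560820-35570398, with 4 exon blocks and 5970 exonic bases. Pus3 and Hyls1 run toward each other and overlap. Of the exonic bases of Pus3, 2618 (88.1%) lie within exons of Hyls1 on the opposite strand, which is 43.9% of the exonic bases of Hyls1. No exonic base of Ddx25 is shared with either gene. Reads were counted by strand, which assigns the reads of Pus3 and Hyls1 separately as far as the libraries keep the strand.

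**Figure D1:**
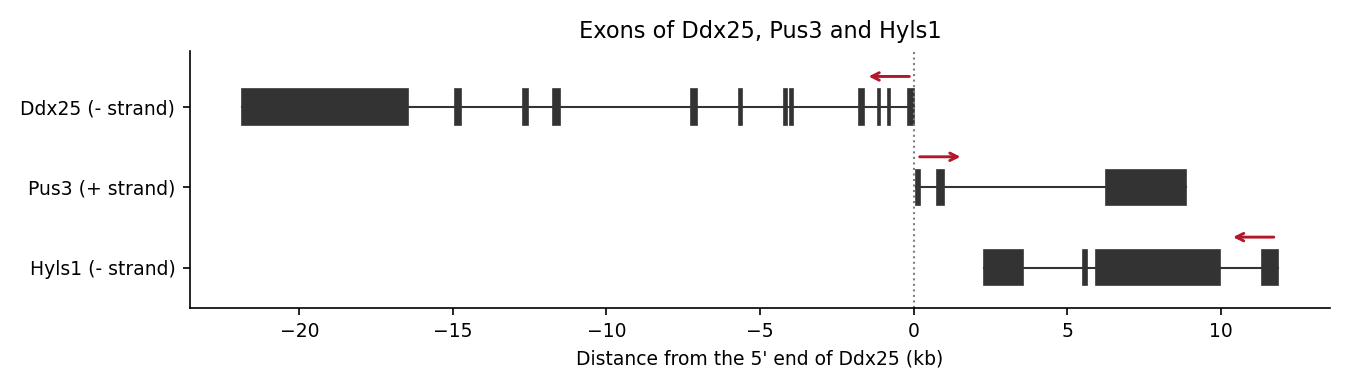
Exons (boxes) and introns (lines) of Ddx25, Pus3 and Hyls1, drawn against distance in kb from the annotated 5′ end of Ddx25 (dotted line), with arrows for the direction of transcription. Ddx25 and Pus3 start 67 bases apart and point away from each other, while the last exon of Pus3 lies over an exon of Hyls1 on the other strand.

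The start region is shown because Ddx25 and Pus3 share it. Each window below runs from 250 bases before the RefSeq start to 50 bases after it, on the strand of its gene, from RefSeq on GRCm38.p6, and capitals mark the motifs found. The windows are chr9:35558421-35558720 (minus strand) for Ddx25, chr9:35558310-35558609 (plus strand) for Pus3 and chr9:35570020-35570319 (minus strand) for Hyls1.
Ddx25: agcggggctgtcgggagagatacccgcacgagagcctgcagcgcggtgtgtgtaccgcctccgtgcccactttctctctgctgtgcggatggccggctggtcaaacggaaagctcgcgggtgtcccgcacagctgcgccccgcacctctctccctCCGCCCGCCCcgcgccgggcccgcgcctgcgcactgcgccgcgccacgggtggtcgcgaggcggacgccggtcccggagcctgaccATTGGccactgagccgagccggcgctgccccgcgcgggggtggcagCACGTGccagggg
Pus3: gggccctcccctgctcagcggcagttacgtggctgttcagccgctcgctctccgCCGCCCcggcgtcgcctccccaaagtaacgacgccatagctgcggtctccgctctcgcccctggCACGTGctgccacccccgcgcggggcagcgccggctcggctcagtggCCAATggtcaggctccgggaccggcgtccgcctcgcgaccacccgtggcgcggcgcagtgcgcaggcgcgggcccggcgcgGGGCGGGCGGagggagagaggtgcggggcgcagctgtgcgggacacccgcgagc
Hyls1: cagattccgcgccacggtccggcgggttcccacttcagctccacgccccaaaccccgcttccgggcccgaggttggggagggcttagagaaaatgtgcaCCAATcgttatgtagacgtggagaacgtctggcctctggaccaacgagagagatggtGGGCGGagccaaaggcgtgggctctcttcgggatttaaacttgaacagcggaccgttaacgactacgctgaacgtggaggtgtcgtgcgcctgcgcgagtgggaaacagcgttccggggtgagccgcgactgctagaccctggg
The windows of Ddx25 and Pus3 hold the same 189 bases, chr9:35558421-35558609, read from opposite strands. The GC content was 75.0% for Ddx25, 77.0% for Pus3 and 81.0% in the shared stretch, compared with 61.7% for Hyls1 and a median of 52.7% over 32851 promoters. The motifs searched, on both strands, were the CCAAT box, the GC box as GGGCGG, the E-box as CACGTG, the TATA box as TATAAA and the cAMP response element as TGACGTCA. The shared stretch holds 1 CACGTG, 1 CCAAT and a pair of GGGCGG matches that overlap each other. In the Pus3 window, counted from 1 at its 5′ end with the RefSeq start at base 251, these lie at bases 119 to 124, 166 to 170, 247 to 252 and 251 to 256. A further GGGCGG lies at bases 55 to 60 of the Pus3 window, on the other strand and outside the shared stretch. The Hyls1 window holds a CCAAT at bases 100 to 104 and a GGGCGG at bases 157 to 162. CACGTG was in 7.15% of all promoters, CCAAT in 37.4% and GGGCGG in 35.7%. TATAAA, in 13.6% of promoters, and TGACGTCA, in 1.79%, were in none of these 3 windows. These matches describe the letters of the windows only.

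The libraries held between 18766971 and 26776555 counts on genes. The level of a gene is in normalized CPM, that is counts scaled to library size with TMM factors, and genes are set against each other in FPKM, which also divides by exonic length. Differences were tested with edgeR on 21257 genes and 17 libraries, KI 4 left out, with Benjamini-Hochberg adjusted p under 0.1 as the threshold, for a change of any amount and for a change past 1 log2 unit. The labels do not say whether libraries came from separate mice, so p-values measure the spread between libraries, which may be partly technical. Several libraries of 1 genotype were close to each other (WT 1 and 2, WT 3 and 4, WT 5 and 6, KO 4 and 5, KI 1 and 2, KI 3 and 5), and tests were also run with each such pair summed into 1 sample. The closest pair of all crossed the labels: KO 2 and KI 4 differed by 1.59 times counting noise, and the next closest pair, KO 4 and KO 5, by 2.05 times. In bulk RNA, fewer cells of a type and less RNA per cell cannot be told apart. Intervals on counts cover counting error only.

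For a change of any amount, edgeR called 1 of the 3 genes in KO against WT, where 30.5% of all genes tested were called, 2 of 3 in KI against WT (background 30.3%) and 2 of 3 in KI against KO (background 0.522%). For a fall past 1 log2 unit it called 1 of 3 (background 1.15%), 2 of 3 (1.51%) and 1 of 3 (0.0282%). Ddx25 was called in each comparison, Pus3 in KI against WT and against KO, and Hyls1 in no comparison. These calls leave out KI 4, which was set apart for its Ddx25 level. With KI 4 kept, Ddx25 in KI against KO did not pass for any change (edgeR adjusted p = 0.739). Past 1 log2 unit, Ddx25 in KO against WT (0.690) and Pus3 in KI against WT (0.706) did not pass either.

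Ddx25 was the most abundant of these genes in WT, was reduced to 12.3% of that level in KO and was nearly absent from KI. In WT the lowest, median and highest libraries had 11433, 11865.5 and 14208 counts, or 538, 564 and 607 CPM. In KO the libraries had 1667, 1395, 1005, 2074, 1897 and 1581 counts (KO 1 to KO 6), and their lowest, median and highest levels were 47.7, 72.2 and 90.9 CPM. In KI the counts were 8 in KI 1, 13 in KI 2, 1 in KI 3, 7 in KI 5 and 6 in KI 6, a level of 0.0456 to 0.519 CPM. With KI 4 set apart for its level of this gene, the ranges of the 3 genotypes did not overlap. KI 3, alone of these 17 libraries, was at or under a floor of 3 counts for this gene. The library labelled KI 4 had 1345 counts and 56.9 CPM, inside the KO range, so with it kept the KI and KO ranges overlapped.

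The mean level of Ddx25 was 567 ± 24.7 CPM in WT (SD, n = 6), 70.0 ± 14.8 CPM in KO (SD, n = 6) and 0.298 ± 0.173 CPM in KI (SD, n = 5). KO libraries thus kept 12.3% of the WT mean, from 8.41% to 16.02% by library. KI libraries kept 0.0525%, and their 35 counts together gave a pooled level with a 95% exact Poisson interval of 0.211 to 0.421 CPM. KI 4 held 10.04% of the WT mean. KO libraries varied among themselves more than WT libraries, with a coefficient of variation of 21.1% against 4.35%.

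In KO against WT, Ddx25 had a log2 fold change of -3.02 (SE 0.19, edgeR adjusted p = 3.77e-10 for any change and 1.94e-07 past 1 log2 unit). In KI against WT it was -10.85 (SE 0.31, edgeR adjusted p = 9.76e-16 and 2.14e-15). KI was also lower than KO, by -7.83 (SE 0.28, edgeR adjusted p = 1.43e-13 and 7.08e-13). Ddx25 had the lowest fold change of all 21257 genes in KI against WT and in KI against KO, while 41 genes fell further than it in KO against WT. With KI 4 kept in KI, the change in KI against WT was -5.86 (SE 1.09, edgeR adjusted p = 3.41e-04), and the difference between KI and KO no longer passed (log2 fold change -2.84, SE 0.95, edgeR adjusted p = 0.739). The KO value itself stayed at -3.02, but its standard error rose to 0.95 and it passed for any change (edgeR adjusted p = 0.0235) and not past 1 log2 unit (0.690). Since KI 4 was set apart for its Ddx25 level, the KI values without it describe the other 5 libraries.

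**Figure D2:**
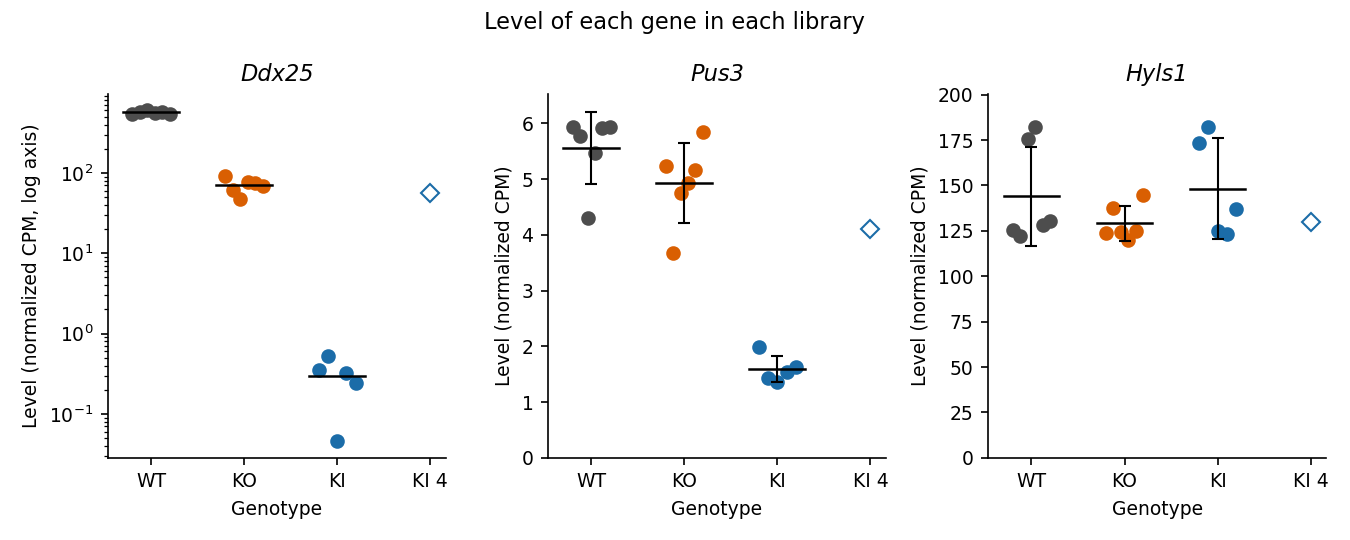
Normalized CPM of Ddx25 (log axis), Pus3 and Hyls1 (linear axes from 0) in each library by genotype, with horizontal lines for means, error bars for SD where drawn, and an open diamond for the library labelled KI 4. With KI 4 set apart, Ddx25 falls in 3 separate bands and Pus3 is low in the 5 KI libraries alone. Hyls1 overlaps in all genotypes, and KI 4 lies within the KO range in each panel.

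Pus3, the head-to-head neighbour, was low in KI and not in KO. WT libraries had 81, 127 and 144 counts at the lowest, median and highest, or 4.30, 5.85 and 5.94 CPM. KO libraries had 84, 114.5 and 135 counts, or 3.67, 5.05 and 5.84 CPM. In KI the counts were 45 in KI 1, 36 in KI 2, 30 in KI 3, 33 in KI 5 and 40 in KI 6, a level of 1.37 to 1.99 CPM. All 5 of these libraries lay below the lowest WT and KO library, and WT and KO overlapped. KI 4 had 97 counts and 4.11 CPM, inside the KO range and just under the lowest WT library.

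The mean level of Pus3 was 5.56 ± 0.641 CPM in WT (SD, n = 6), 4.93 ± 0.723 CPM in KO (SD, n = 6) and 1.59 ± 0.242 CPM in KI (SD, n = 5). KI libraries held 28.7% of the WT mean, between 24.6% and 35.7% by library, and KO libraries 88.7%. Against WT, the log2 fold change in KI was -1.80 (SE 0.16, edgeR adjusted p = 4.37e-08 for any change and 0.00264 past 1 log2 unit). Against KO it was -1.63 (SE 0.16, edgeR adjusted p = 3.57e-06 for any change), which did not pass the test past 1 log2 unit (0.354). In KO against WT the value was -0.17 (SE 0.14, edgeR adjusted p = 0.423), with a 95% interval of -0.45 to 0.10. A reduction of Pus3 in KO as large as that in KI lies outside this interval.

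Among 21257 genes, 334 had a lower fold change than Pus3 in KI against WT, and 33 had a lower one in KI against KO. Exact permutation tests, two-sided, over libraries gave the smallest p the design allows for Pus3 in KI against WT and against KO (p = 0.00433, n = 5 against 6, adjusted 0.00779 over 9 tests). All permutation tests here take each library as a separate sample. They were not run with the close pairs summed, which leaves fewer samples. The exact permutation test gave p = 0.162 for Pus3 in KO against WT (n = 6 against 6, adjusted 0.244). For Ddx25 in KO against WT, which does not involve KI 4, the exact permutation test gave p = 0.00216 (n = 6 against 6, adjusted 0.00779), also the smallest the design allows. No weight is placed on permutation tests of Ddx25 in KI, since KI 4 was set apart by that level. The tests were repeated with KI 4 kept in KI, an alternative chosen after seeing the data. For Pus3 the exact permutation p was then 0.00216 against WT, where KI still lay below every WT library (adjusted 0.00649), and 0.00433 against KO, where the ranges overlapped (n = 6 against 6, adjusted 0.00779).

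With KI 4 kept in KI, Pus3 still differed for a change of any amount, by -1.46 from WT (SE 0.22, edgeR adjusted p = 3.58e-05) and by -1.29 from KO (SE 0.22, edgeR adjusted p = 0.0225), but no longer past 1 log2 unit from WT (0.706). With close pairs summed into 1 sample, which left 3 WT, 5 KO and 3 KI samples, the change from WT was -1.76 (edgeR adjusted p = 1.33e-04 for any change and 0.163 past 1 log2 unit). Pus3 counts were low, so a library of KI rested on 30 to 45 counts.

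**Figure D3:**
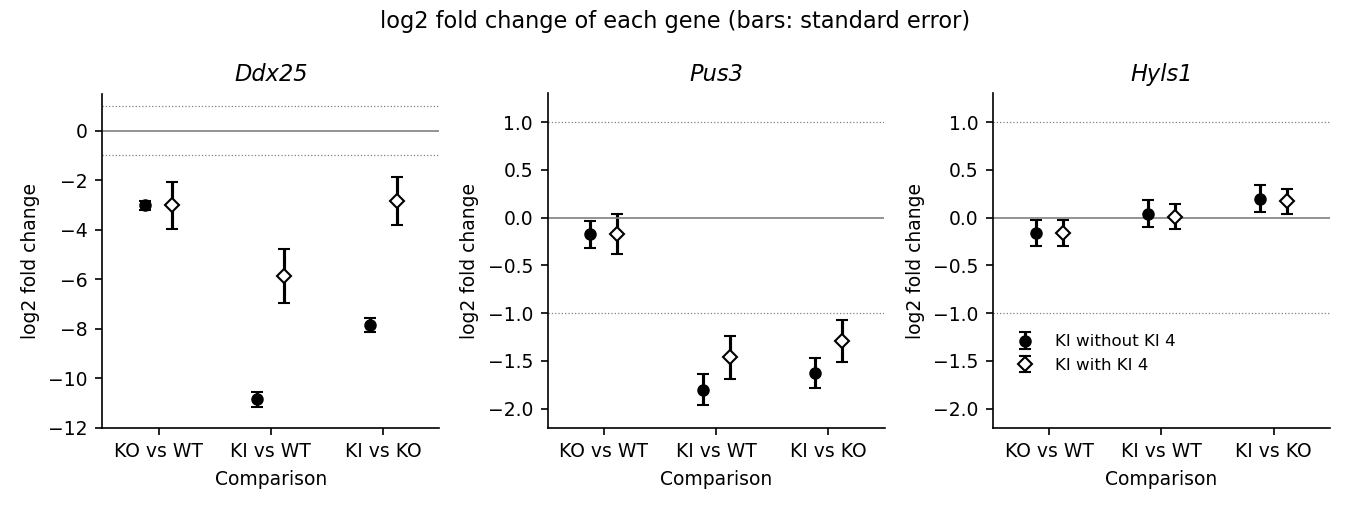
log2 fold changes of Ddx25, Pus3 and Hyls1 from edgeR in KO against WT, KI against WT and KI against KO, without (filled circles) and with (open diamonds) the library labelled KI 4. Error bars are standard errors and dotted lines mark 1 log2 unit. Pus3 lies near 0 in KO and at -1.80 in KI, and Hyls1 lies near 0 throughout.

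Hyls1 did not pass the test in any comparison. WT libraries had 2705, 2942 and 3756 counts at the lowest, median and highest, or 122, 129 and 182 CPM. KO libraries had 2271, 3131.5 and 3345 counts, or 120, 124 and 145 CPM. KI libraries had 3932, 4570, 2739, 2636 and 3360 counts (KI 1, 2, 3, 5 and 6), a level of 123 to 182 CPM. The genotypes overlapped, and KI 4, with 3073 counts and 130 CPM, lay inside the range of each.

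The mean level of Hyls1 was 144 ± 27.2 CPM in WT (SD, n = 6), 129 ± 9.76 CPM in KO (SD, n = 6) and 148 ± 27.8 CPM in KI (SD, n = 5). The log2 fold change was -0.16 in KO against WT (SE 0.14, 95% interval -0.42 to 0.11, edgeR adjusted p = 0.462). In KI against WT it was 0.04 (SE 0.14, 95% interval -0.24 to 0.32, edgeR adjusted p = 0.868), and in KI against KO it was 0.20 (SE 0.14, 95% interval -0.08 to 0.48, edgeR adjusted p = 0.683). These intervals leave room for small differences and none of them reaches the size of the change in Pus3. Exact permutation tests, two-sided, gave p = 0.301 in KO against WT (n = 6 against 6), 0.749 in KI against WT and 0.208 in KI against KO (n = 5 against 6). With KI 4 kept in KI, the log2 fold change was 0.01 against WT (SE 0.13, edgeR adjusted p = 0.967) and 0.17 against KO (SE 0.13, edgeR adjusted p = 0.961). The spread of Hyls1 within a genotype followed the close pairs of libraries. WT 3 and WT 4 had 176 and 182 CPM and the other WT libraries 122 to 131 CPM, and KI 1 and KI 2 had 174 and 182 CPM and the other KI libraries 123 to 137 CPM.

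Pus3 and Hyls1 share most of the exonic sequence of Pus3 on opposite strands, so their counts were also set against each other within each library. Per 100 counts of Hyls1, there were 4.01 ± 1.01 counts of Pus3 in WT (SD, n = 6), 3.84 ± 0.589 in KO (SD, n = 6) and 1.09 ± 0.181 in KI (SD, n = 5). The KI libraries lay between 0.788 and 1.25, below the lowest WT library at 2.45 and the lowest KO library at 2.67, and KI 4 had 3.16. The lower Pus3 level in KI thus did not go with a lower Hyls1 level.

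Per exonic length, Ddx25 stood at 81.8 FPKM, Hyls1 at 24.1 FPKM and Pus3 at 1.87 FPKM in WT. The order changed in the mutants. In KO, Hyls1 led with 21.6 FPKM, followed by Ddx25 with 10.1 FPKM and Pus3 with 1.66 FPKM. In KI the order was Hyls1 (24.8 FPKM), Pus3 (0.536 FPKM) and Ddx25 (0.0430 FPKM). In each genotype the library ranges of neighbouring genes in this order did not overlap.

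Across the 18 libraries, the gene whose log2 CPM was most like that of Ddx25 was Pus3, and the gene most like Pus3 was Ddx25, each first of 21256 genes (Pearson r = 0.955). These values describe 18 libraries that fall into genotypes, share normalization and include the close pairs, and they carry no test. Hyls1 had r = -0.11 with Ddx25 and -0.24 with Pus3. The genes next most like Ddx25 were Cd3d, a subunit of the T cell receptor complex (r = 0.926), 1700001F09Rik (0.919), Trappc2l, a subunit of a vesicle trafficking complex (0.906), and 4930444A19Rik (0.899). Those next most like Pus3 were Gm9597 (0.892), 1700001F09Rik (0.891), Cd3d (0.888) and Gm9732 (0.881). As examples of these patterns, 1700001F09Rik had means of 59.5 CPM (WT), 50.6 CPM (KO) and 12.2 CPM (KI) beside 64.5 CPM in KI 4, and Cd3d had 2.99, 2.01 and 0.830 CPM, with 2.498 in KI 4. Gm9597, 1700001F09Rik and Gm9732 lie near each other on chromosome 14, and whether they share reads was not tested. Cd3d lies on chromosome 9, as Ddx25 does, and starts at base 44981786. Trappc2l lies on chromosome 8 and 4930444A19Rik on chromosome 1. Whether position bears on these levels was not tested. The genes most like Hyls1 were Sqle, an enzyme of cholesterol synthesis (0.924), Ube2q1, a ubiquitin-conjugating enzyme (0.918), Map4k5, a kinase (0.909), Tdp1, a DNA repair enzyme (0.903), and Hspbp1, a regulator of heat shock proteins (0.902). Without KI 4, all 5 genes most like Ddx25, all 5 most like Pus3 and 4 of 5 most like Hyls1 were the same.

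**Figure D4:**
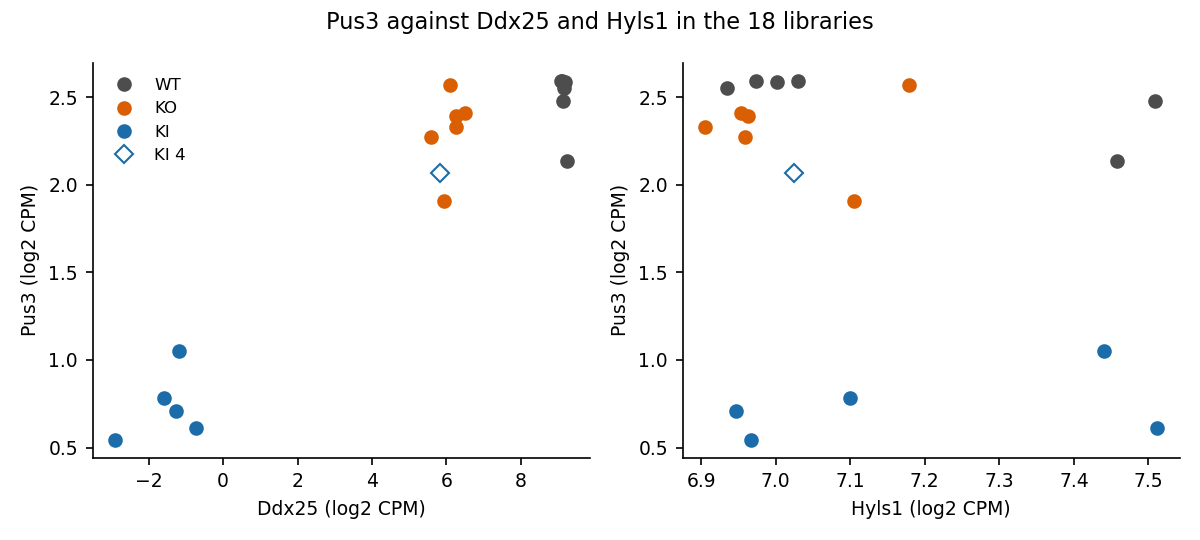
Pus3 against Ddx25 (left) and against Hyls1 (right) in log2 CPM, 1 point per library, with an open diamond for the library labelled KI 4. The 5 KI libraries sit low for both Pus3 and Ddx25, KO libraries are low for Ddx25 alone, and no such split shows along Hyls1.

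KI 4 was also set beside KI and KO in other genes. For any change, 109 other genes differed between the 5 KI libraries and KO. Of these, 104 (95.4%) had a level in KI 4 nearer the KO mean, and all 14 that differed past 1 log2 unit did. The KO library closest to KI 4 took part in choosing these genes and in the KO mean. These shares are therefore not independent of that closeness. No share for any other library left out in the same way is given for scale, and the shares carry no test.

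The annotation holds 9 other genes within 100 kb of the 3. Cdon, a cell surface receptor, and Pate2, which encodes a small secreted protein, had enough counts to be tested. Gm25630, Gm24188, Gm1113, Gm6762, Gm10105, Pate4 and Pate3 did not, with at most 13 counts in a library. Pate2 lies on the plus strand, and its annotated start overlaps the 5′ end of Hyls1. Its libraries had 38 to 51 counts in WT, 38 to 59 in KO, 22 to 31 in KI and 39 in KI 4. The level of Pate2 was 2.17 ± 0.332 CPM in WT (SD, n = 6), 2.06 ± 0.432 in KO (SD, n = 6), 1.15 ± 0.152 in KI (SD, n = 5) and 1.65 in KI 4. KI ranged from 1.03 to 1.41 CPM, below every WT library, while its highest library lay above the lowest KO library at 1.398.

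Pate2 thus shared the direction of Pus3 with a smaller size. Its log2 fold change was -0.91 in KI against WT (SE 0.19, edgeR adjusted p = 0.00135) and -0.83 in KI against KO (SE 0.19, edgeR adjusted p = 0.0674). It was called against WT in all 25 alternative fits, with values from -0.96 to -0.75, and against KO in 5 of 25 only. With KI 4 kept, it was -0.81 against WT (SE 0.19, edgeR adjusted p = 0.00269) and did not pass against KO (-0.73, edgeR adjusted p = 0.288). In KO against WT the value was -0.07 (SE 0.17, edgeR adjusted p = 0.819). Cdon, on the far side of Ddx25, had 1.16 ± 0.197 CPM in WT (SD, n = 6), 1.32 ± 0.350 in KO (SD, n = 6) and 1.003 ± 0.130 in KI (SD, n = 5), and passed no test.

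Of the 49 other genes within 1 Mb of Ddx25, 12 were tested. In KO against WT 2 were higher and 3 lower for any change, in KI against WT 2 were higher and 2 lower, and in KI against KO only Pate2 was lower. These shares of 12 rest on few genes beside backgrounds of 30.5%, 30.3% and 0.522%, and none passed 1 log2 unit. The genes named next were chosen after their values were seen. St3gal4, a sialyltransferase, had log2 fold changes of 1.34 in KO (SE 0.19, edgeR adjusted p = 2.36e-05) and 1.08 in KI (SE 0.20, edgeR adjusted p = 3.90e-04) against WT. Srpr, which encodes a subunit of the signal recognition particle receptor, had -0.38 (SE 0.13, edgeR adjusted p = 0.0336) and -0.61 (SE 0.14, edgeR adjusted p = 0.00242). Both were called in KO and in KI against WT, while Pus3 and Pate2 were called against WT in KI alone.

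**Figure D5:**
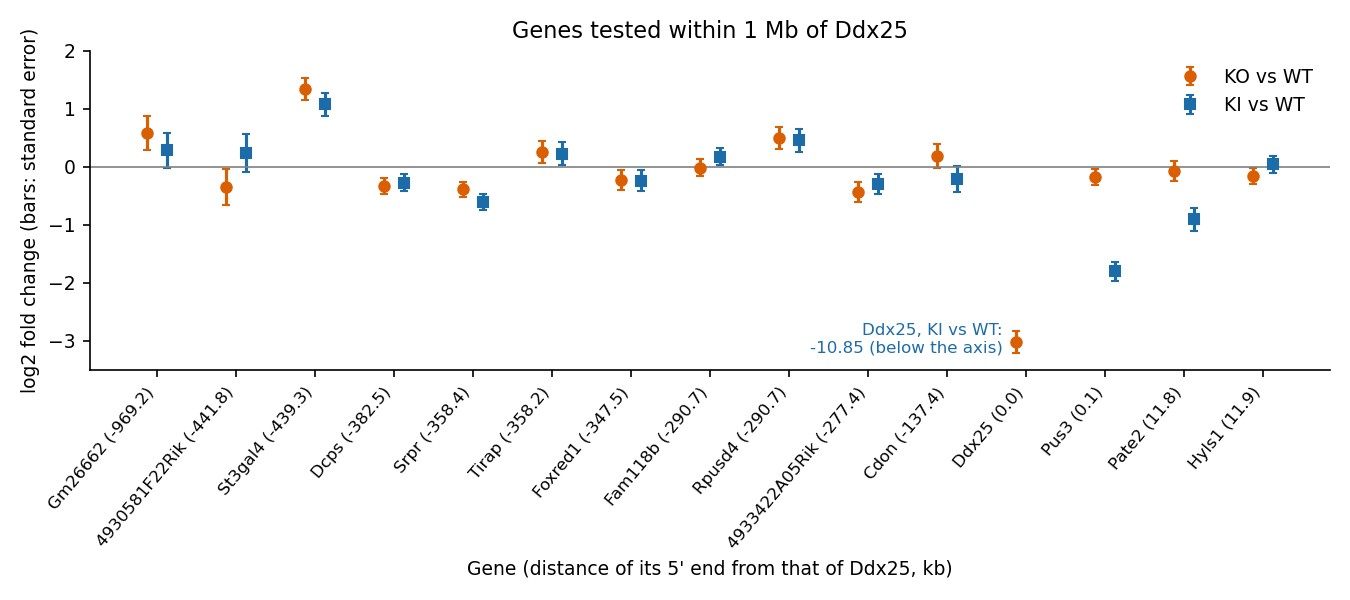
log2 fold changes from edgeR in KO against WT (circles) and KI against WT (squares), with standard errors, for Ddx25, Pus3, Hyls1 and the 12 other genes tested within 1 Mb, in order along the chromosome with the distance of each 5′ end from that of Ddx25 in kb. Pus3 and Pate2 are lower in KI than in KO, and the value of Ddx25 in KI, -10.85, lies below the axis.

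The relatives of each gene were counted from lists. Of 37 other DEAD-box helicases tested, 9 were higher and 1 lower in KO against WT and 11 were higher and 2 lower in KI against WT, with medians of 0.14 and 0.19 log2 units beside 0.03 and 0.05 over all genes. The called shares, 27.0% and 35.1%, were near the backgrounds of 30.5% and 30.3%. Ddx3x, a helicase of translation initiation, had the lowest p in KO and was higher in KO (log2 fold change 1.26, SE 0.17) and KI (0.95, SE 0.17). Ddx28 (0.98 in KO and 0.93 in KI), Ddx6 (0.76 and 0.70), a helicase of mRNA storage and decay, and Ddx42 (0.58 and 0.76) were also higher in both. Ddx3y was higher in KO (0.73) and did not pass in KI (0.39). Ddx19a and Ddx19b, the closest relatives of Ddx25, which act in mRNA export, passed no test, with log2 fold changes of 0.28 and 0.05 in KO and 0.33 and 0.15 in KI. Ddx19b had mean levels of 190 CPM (WT), 197 CPM (KO) and 211 CPM (KI).

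Of 12 other pseudouridine synthases, 3 were higher and 0 lower in KO against WT by edgeR. In KI against WT 3 were higher and 0 lower, not all of them the same genes. Dkc1, the synthase of ribosomal and small nucleolar RNPs, had 0.69 in KO (SE 0.26, edgeR adjusted p = 0.0608), Rpusd4, a mitochondrial synthase, 0.49 (SE 0.19, edgeR adjusted p = 0.0626) and Rpusd2 0.43 (SE 0.16, edgeR adjusted p = 0.0658). In KI against WT, Rpusd4 passed (0.46, SE 0.20, edgeR adjusted p = 0.0992). Dkc1 (0.03, edgeR adjusted p = 0.952) and Rpusd2 (0.17, edgeR adjusted p = 0.526) did not pass there. Pus10 passed in KI (0.26, SE 0.10, edgeR adjusted p = 0.0661) and Pus1 in neither mutant. These 3 of 12 stand beside backgrounds of 30.5% and 30.3%. No synthase other than Pus3 was called lower in KI against WT, where 15.8% of all genes were called lower, so 0 of 12 says little. The lowest log2 fold change among the other 12 in that comparison was -0.45. Rpusd4 also lies within 1 Mb of Ddx25.

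Of 29 other centriole and basal body genes, 5 were higher and 3 lower in KO against WT, 27.6% of the list, and 9 were higher and 3 lower in KI against WT, 41.4% of the list, beside backgrounds of 30.5% and 30.3%. Odf2, a protein of the outer dense fibers of the sperm tail and of centriolar appendages, had log2 fold changes of -1.28 in KO and -1.55 in KI. Cetn2, a centrin, had -1.05 and -1.32, and Sclt1, an appendage protein, -0.78 and -1.06, all lower in both mutants. Cenpj, a regulator of centriole length, had 0.59 and 0.60 and Spice1 0.35 and 0.34, both higher in both mutants. Of 18 genes listed as partners of GRTH in mRNA export and in the chromatoid body, 2 were higher and 1 lower in KO against WT and likewise in KI against WT, 16.7% of the list. Kif17, a kinesin, was lower in both mutants (-1.45 in KO and -1.82 in KI), Xpo1, a nuclear export receptor, was higher in both (0.38 in each), and Dicer1, which cuts miRNA precursors, was higher in KO (0.58) and did not pass in KI (edgeR adjusted p = 0.994). Piwil1, a PIWI protein that binds piRNAs, had 0.37 in KO (edgeR adjusted p = 0.115) and 0.29 in KI (0.250), and Pabpc1, a poly(A)-binding protein, had 0.42 (edgeR adjusted p = 0.157) and 0.38 (0.220), none past the test. In KI against KO, edgeR called 0 genes of these 4 lists, where 0.522% of all genes were called. With KI 4 kept in KI, the calls in KI against WT numbered 15 helicases, 3 pseudouridine synthases, 11 centriole genes and 3 GRTH partners. The share of all genes called in that fit is not given, so these counts have no background beside them.

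Markers of testis cell types were examined as lists beside these results. Genes listed as elongating spermatid markers summed to between 12889 and 17622 CPM in WT, 1578 and 3622 in KO, 1927 and 2750 in KI, and 3132 in KI 4, and all 7 were lower in both mutants. The list holds Prm2 and Tnp2, whose mRNAs, by the study's account, are already transcribed in RS. It therefore does not mark elongating cells alone. Leydig cell markers summed to between 10.8 and 22.4 CPM in WT, 34.2 and 58.9 in KO, 14.7 and 74.8 in KI and 56.0 in KI 4, and all 6 tested were higher in both mutants. Round spermatid markers summed to 628 to 1103 CPM in WT, 371 to 955 in KO and 410 to 570 in KI, and spermatocyte markers to 670 to 952, 772 to 957 and 747 to 1109 CPM, so meiotic markers were present in every library labelled as RS. Spermatogonia markers lay between 19.02 and 67.8 CPM and Sertoli markers between 9.61 and 26.8 CPM over WT, KO and KI, with 70.4 and 22.01 CPM in KI 4. Macrophage markers summed to at most 7.51 CPM, red blood cell markers to at most 2.56 CPM (with Hbb-bt at or under the floor of 3 counts in every WT library), and KI 4 had 7.79 and 2.16 CPM. Of 6 round spermatid markers tested, 1 was lower in KO and 3 were lower in KI against WT, and of 6 Sertoli markers 2 and 3 were lower. Of 6 spermatogonia markers 3 were higher in KO and 0 in KI, and of 6 spermatocyte markers 3 were higher and 1 lower in KO and 1 was higher in KI. Of 3 macrophage markers 1 was higher in each mutant, and the 1 red blood cell marker tested was called in neither. Over the 8 lists, 13 of 41 markers tested were higher and 11 lower in KO against WT (58.5% called, background 30.5%), 8 higher and 13 lower in KI against WT (51.2%, background 30.3%), and 0 were called by edgeR in KI against KO (background 0.522%). The list medians in KI against KO were -0.70 log2 units for spermatogonia, -0.34 for round spermatids, -0.31 for Leydig cells and -0.22 for elongating spermatids. For the other lists they were -0.14 for Sertoli cells, -0.04 for spermatocytes, 0.42 for macrophages and 0.63 for red blood cells (1 marker tested). The part of cell composition in the differences of Ddx25 and Pus3 was not tested.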

How the data were processed

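Strand-specific RNA libraries of RS from mice of the WT, KO and KI genotypes were sequenced without polyA selection. Reads were trimmed by the authors (cutadapt 3.4), mapped to GRCm38 (STAR 2.7.8a), assigned by strand to GENCODE M18 genes as pairs (featureCounts, Subread 2.0.1) and deposited as raw counts per gene. Genotypes and replicate numbers came from the labels. Counts were used as deposited, between 18766971 and 26776555 per library, with 0 columns left without a library. Genes were filtered with filterByExpr, scaled by TMM and fitted with genotype in edgeR 4.0.16 (R 4.3.3), using glmQLFTest for any change and glmTreat past 1 log2 unit. Levels come from TMM over 18 libraries. log2 CPM used a prior count of 2. Positions came from GENCODE M21, promoters from RefSeq. The edgeR fits were tested on simulated counts with known changes. Exact permutation tests used scipy 1.17.1.

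The members and lists were chosen with earlier results of these data known. The genes named were the 3 members, all genes within 100 kb, the 5 most correlated with each member, 5 of each list with the lowest p in KO, Ddx19a and Ddx19b, and genes within 1 Mb past 1 log2 unit. St3gal4 and Srpr were chosen after their values were seen. Alternatives were KI 4 kept, DESeq2 1.42.0, its size factors, other filters, only the genotypes compared, the replicate block, close pairs (index under 4) summed, adjusted p under 0.05, other windows, FPKM and each library left out. Permutation tests with KI 4 kept were added after seeing the data. miRNA data were not analysed here.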

Additional observations from a re-analysis of the deposited data

Results flagged for a closer look

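Groups of all 6 libraries of a genotype were examined for a library far from the others, for 3 genes in 3 genotypes, which gave 9 groups, and chance marks about 1 in 20. Ddx25 in KI was highest in KI 4, at 56.9 CPM, with every other KI library at 0.519 CPM or less. KI 4 was set apart for this level, so this mark restates that choice and adds nothing to it. Pus3 in KI was highest in KI 4, at 4.11 CPM, where the other KI libraries reached 1.99 CPM. Pus3 in WT was lowest in WT 3, at 4.30 CPM, where the other WT libraries lay between 5.48 and 5.94 CPM. Without WT 3 the Pus3 results kept their calls.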

How the results depend on the processing

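Over all alternative edgeR and DESeq2 fits, the results for Ddx25, Pus3 and Hyls1 for any change kept their direction and their side of the threshold in 230 cases and lost significance in 1: Ddx25 in KI against KO with KI 4 kept (-2.84). Past 1 log2 unit, 227 kept their side and 4 lost it: Ddx25 in KO against WT and KI against KO with KI 4 kept, and Pus3 in KI against WT with KI 4 kept (-1.46) or with close pairs summed (-1.76). Leaving out each library changed no call of the 3 genes, with ranges of -3.10 to -2.95 (KO), -11.11 to -10.55 (KI) and -8.09 to -7.54 (KI against KO) for Ddx25, -0.24 to -0.10, -1.89 to -1.70 and -1.72 to -1.54 for Pus3, and -0.21 to -0.09, -0.02 to 0.19 and 0.13 to 0.30 for Hyls1. The permutation tests with KI 4 kept, chosen after seeing the data, changed no call. The filter of at least 10 counts in every library was not run for Ddx25, which it removes.

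The replicate numbers showed no clear pairing of the libraries, and this was not tested. Deviations of 16 same-numbered pairs correlated between -0.39 and 0.52 (median -0.05), with 6 over 0.1. Those of 80 pairs with other numbers correlated between -0.41 and 0.42 (median -0.02), with 29 over 0.1. With the replicate block, Ddx25 had -3.05, -10.87 and -7.82 and Pus3 -0.18, -1.81 and -1.63 in KO against WT, KI against WT and KI against KO, Hyls1 -0.15, 0.07 and 0.22, and no call of these genes changed.

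Counts of listed genes moved more. The shares of all genes called in these alternative fits are not given beside them. For pseudouridine synthases, KO against WT gave 0 without a filter, 1 with the block, 0 with close pairs summed, 0 at an adjusted p under 0.05 and 0 to 3 without a library (fewer by over 1.5 times without KO 2, KO 3, WT 1, WT 2 or WT 4). KI against WT gave 1, 1, 0, 1 and 1 to 4 (fewer by that much without KI 1). Within 1 Mb, KO against WT gave 3, 3, 1, 2 and 2 to 5 (fewer by that much without KO 2, KO 5, WT 1, WT 2, WT 3 or WT 4), and the call of Pate2 in KI against KO was lost (0) under each of these, with KI 4 kept and in 14 of 17 fits without a library (0 to 1). DEAD-box helicases in KI gave 8 without a filter and 5 with close pairs summed, centriole genes 3 in KO and 3 in KI with close pairs summed, and GRTH partners in KI 1 with close pairs summed and 2 to 7 without a library (more by over 1.5 times without KI 2, KO 3, WT 1 or WT 6). The causes were not tested, except that summed pairs leave fewer samples. Few counts limit the precision of Pus3 and Pate2, with as few as 30 and 22 in a library, and of Ddx25 in KI, with 1 to 13.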

Other observations

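The head-to-head arrangement was counted over the genome after the values of Ddx25 and Pus3 were seen. Other gene pairs with both members tested and annotated 5′ ends at most 200 bases apart on opposite strands numbered 885. In KI against WT, a gene of such a pair was lower past 1 log2 unit in 18 cases, and its partner was lower for any change in 11 of them and past 1 log2 unit in 4, with a median partner log2 fold change of -0.73. Over all genes tested in that comparison, 15.8% were lower for any change and 1.51% past 1 log2 unit, with a median of 0.05. In KO against WT there were 12 such cases, with the partner lower in 6, past 1 log2 unit in 2, and a median of -0.46, beside 13.7%, 1.15% and a median of 0.03 over all genes. Whether partners differ from other genes was not tested. In KO, Ddx25 was lower past 1 log2 unit and Pus3 was not called.

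Within 5 Mb of Ddx25, 70 other genes were tested. Of these, 33 (47.1%) were called in KO against WT, 24 (34.3%) in KI against WT and 1 (1.43%) in KI against KO. The backgrounds were 30.5%, 30.3% and 0.522%. Past 1 log2 unit, 2 were higher and 2 lower in KO against WT, and 2 and 2 in KI against WT. The log2 fold changes ran from -2.76 to 7.26 in KO against WT and from -2.52 to 7.70 in KI against WT. Within 0.5 Mb, 11 were tested, with 5, 4 and 1 called.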
